A study of Mus musculus with 20 samples.

Results

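The binding of the stress transcription factor ATF4 was examined at 9 genes of cysteine supply and glutathione turnover. These were Slc7a11, Cth, Cbs, Gclc, Gclm, Gss, Gsr, Chac1 and Chac2. They make 9 of 21631 protein-coding genes on mouse chromosomes 1 to 19 and X. The genes were chosen by name for their function, with earlier results of these data known, so their counts are descriptions. ATF4 had been mapped by CUT&Tag, in which an antibody guides a transposase to a DNA-bound protein so that the nearby DNA can be sequenced. The cells were C2C12, an established line of mouse myoblasts, of wild-type genotype in every group. One group received DMSO, the solvent, for 6 h, and the other received thapsigargin at 100 nM for 6 h, which stops calcium uptake into the endoplasmic reticulum (ER) and provokes ER stress. Each treatment had 2 ATF4 samples, and the authors deposited 1 peak list per treatment, with 803 peaks for DMSO and 8619 for thapsigargin. The lists give the position of each peak and no height, so a difference between treatments has no replicate error here, the read depth is unknown, and no test between treatments could be made. The peaks carry no expression values, so the myoblast label was not checked against marker genes.

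Cells take up cystine through a transporter made of the light chain Slc7a11 (xCT) and the heavy chain Slc3a2, or they make cysteine from homocysteine with the transsulfuration enzymes Cbs and Cth. Glutamate-cysteine ligase, with the catalytic subunit Gclc and the modifier subunit Gclm, joins cysteine to glutamate, and Gss adds glycine to give glutathione. Gsr reduces oxidised glutathione again, and the gamma-glutamylcyclotransferases Chac1 and Chac2 break glutathione down. ATF4 is known to pair with C/EBP factors on a composite element and to drive genes of amino acid supply under stress.

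The sequences before the start sites of 4 genes are shown because an ATF4 peak in thapsigargin covered each of them whole. They come from RefSeq on the build GRCm38.p6, to which mm10 corresponds, and hold the 250 bases before each start, read 5′ to 3′ on the strand of the gene. The Chac1 stretch is chr2:119350992-119351241 (plus strand), that of Slc7a11 is chr3:50443614-50443863 (minus strand), that of Gclm is chr3:122245307-122245556 (plus strand) and that of Chac2 is chr11:30986366-30986615 (minus strand). Capitals mark TGATGNAA on either strand, the C/EBP-ATF composite motif, in Chac1 and Slc7a11, the ATF/CRE variant TGACGCAA at the left edge of Chac1, and TGACNNNGC on either strand, the core of the antioxidant response element, in Gclm.
Chac1: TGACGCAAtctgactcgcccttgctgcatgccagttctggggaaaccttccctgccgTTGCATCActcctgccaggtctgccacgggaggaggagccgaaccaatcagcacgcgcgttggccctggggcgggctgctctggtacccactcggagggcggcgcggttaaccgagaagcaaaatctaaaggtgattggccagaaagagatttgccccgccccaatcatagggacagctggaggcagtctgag
Slc7a11: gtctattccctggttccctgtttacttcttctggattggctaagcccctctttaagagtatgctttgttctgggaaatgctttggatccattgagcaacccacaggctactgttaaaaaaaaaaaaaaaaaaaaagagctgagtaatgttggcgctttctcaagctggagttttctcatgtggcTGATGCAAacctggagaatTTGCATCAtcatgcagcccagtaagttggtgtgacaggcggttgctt
Gclm: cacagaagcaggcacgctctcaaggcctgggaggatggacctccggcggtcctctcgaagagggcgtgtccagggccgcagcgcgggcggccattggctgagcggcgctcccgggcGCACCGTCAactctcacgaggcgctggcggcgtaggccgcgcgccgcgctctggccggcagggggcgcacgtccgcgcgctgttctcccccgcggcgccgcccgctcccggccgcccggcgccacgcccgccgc
Chac2: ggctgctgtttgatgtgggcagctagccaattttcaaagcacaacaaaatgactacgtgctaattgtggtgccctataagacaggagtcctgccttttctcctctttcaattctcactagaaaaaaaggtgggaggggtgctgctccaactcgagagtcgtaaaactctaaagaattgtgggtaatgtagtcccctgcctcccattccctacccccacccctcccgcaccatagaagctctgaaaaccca

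At the ends of the 9 genes, ATF4 was found at 1 gene in DMSO and at 3 genes in thapsigargin. Chac1 had a peak in both lists, Chac2 and Gclm had one in thapsigargin alone, and the other 6 had no peak centre within 1 kb of either end. Of all protein-coding genes, 1.29% had a DMSO peak and 15.1% a thapsigargin peak at a gene end. By pattern, 274 genes had a peak in both lists (1.27%), 2993 in thapsigargin alone (13.8%), 4 in DMSO alone and 18360 in neither. A gene end here is either limit of the RefSeq gene span, whichever strand the gene is on.

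Slc7a11 was missed by that rule. Its RefSeq span (chromosome 3, 50364936 to 50499087) runs 55.5 kb beyond the start site in the RefSeq promoter table, which is at 50443613 on the minus strand. A thapsigargin peak at 50442817 to 50444500 lay over this start site, with its centre 45.5 bp from it. Distances were then measured from RefSeq start sites in place of gene ends, a rule added after the data were seen. By this rule, 4 of the 6 genes with an entry had a thapsigargin peak within 1 kb (Chac1, Chac2, Slc7a11 and Gclm). In DMSO 1 of 6 had a peak (Chac1). Among all protein-coding genes with an entry, 16.4% had a thapsigargin peak and 1.38% a DMSO peak there. Gss and Cbs were the genes with an entry and no peak at the start, and the table used here held no entry for Cth, Gclc and Gsr.

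**Figure D1:**
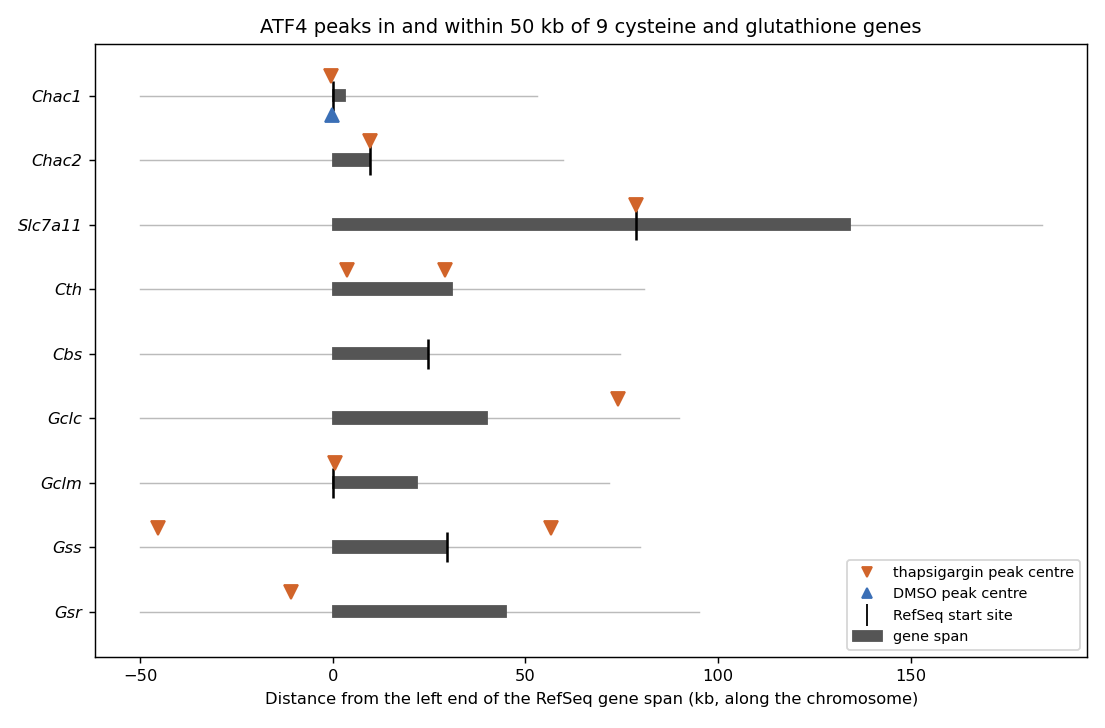
Position of ATF4 peak centres in and within 50 kb of each of the 9 genes; the x axis is the distance in kb from the left end of the gene span, the dark bar is the span, the vertical tick the RefSeq start site, and triangles are peak centres of the thapsigargin list (above) and the DMSO list (below). Chac1 alone has a DMSO peak, Slc7a11 has its peak at a start site inside the span, and Cbs has none.

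Within the wider neighbourhood, 8 of the 9 genes had at least 1 thapsigargin peak centred in the gene or within 50 kb of it, and 1 had a DMSO peak. The same held for 51.1% of all protein-coding genes in thapsigargin and 8.01% in DMSO. These 8 genes had 10 thapsigargin peaks among them, 4 centred inside a gene of the set and 3 at a gene end. Of the 10, 1 overlapped a DMSO peak (the one at Chac1), and of all thapsigargin peaks 9.25% did. Their widths ran from 501 to 1710 bp with a median of 1042.5 bp, beside a median of 1037 bp in the whole list.

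Among the degrading enzymes, Chac1, which is known as a strongly stress-induced gene and cuts glutathione, carried ATF4 with or without thapsigargin. Its peak ran from 119350251 to 119351614 in DMSO (1364 bp) and from 119350158 to 119351644 in thapsigargin (1487 bp). The DMSO peak lay wholly inside the thapsigargin one, which reached 93 bp further on one side and 30 bp on the other. The width ratio of thapsigargin to DMSO was 1.09. Over the 799 DMSO peaks that overlapped a thapsigargin peak the median ratio was 1.56, and 55 of them (6.88%) had a ratio below that of Chac1. In the DMSO list its width stood at percentile 90.8, counted as the share of peaks no wider than it, and in the thapsigargin list at 85.0. The centres were 31.5 bp apart, beside a median of 97 bp over all pairs. The pairs were not matched for DMSO width, which is the divisor of the ratio and was large at Chac1.

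The Chac1 start site is at 119351242, and both peaks were centred before it, by 309.5 bp in DMSO and by 341 bp in thapsigargin. The composite match lay at -193 to -186 from the start on the opposite strand, 120 bp from the DMSO peak centre and 151.5 bp from that of thapsigargin. The variant TGACGCAA at -250 to -243 was nearer to the centres, at 63 bp and 94.5 bp. It stands at the edge of the searched window, and both centres lay beyond that edge, where no sequence was searched. That variant was added to the search after the sequences had been seen.

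Chac2, the paralogue known for a slower and constant turnover of glutathione, had no DMSO peak at its gene (chromosome 11, 30976707 to 30986365). The nearest one was 383 kb away. In thapsigargin a peak at 30985954 to 30986846 was centred 35 bp from the start site, and 1.19% of all protein-coding genes had a peak centre nearer to a gene end. It was a narrow peak of 893 bp, at percentile 34.4 of its list. The peak centre lay within the span of Asb3, and no gene end other than that of Chac2 was within 1 kb of it. The Chac2 window held none of the motifs searched.

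For cystine uptake, Slc7a11, the light chain that carries cystine into the cell, had 1 wide peak in thapsigargin and none in DMSO. The peak measured 1684 bp, at percentile 92.1 of its list, and the nearest DMSO peak was 698 kb from a gene end. It was also an isolated site. This 1 thapsigargin peak was the only one centred in the gene or within 500 kb of it, whereas Chac1 had 15 and protein-coding genes had a median of 5. The sequence holds 2 composite matches on opposite strands, at -66 to -59 and -47 to -40, whose middles were 17 bp and 2 bp from the peak centre. Both matches read TGATGCAA on one strand, the stricter form of the motif.

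The heavy chain partner differed from the light chain in the lists. Slc3a2 (chromosome 19, 8706882 to 8723369), which anchors Slc7a11 and other light chains in the membrane, had a DMSO peak at 8712667 to 8713784 (1118 bp) inside the gene, centred 671.5 bp from its RefSeq start site. A thapsigargin peak of 1921 bp at 8712230 to 8714150 covered it. A further thapsigargin peak of 912 bp lay at the right-hand limit of the gene span, at 8722501 to 8723412, with no DMSO overlap. Both chains of the cystine transporter had a start-site peak in thapsigargin, and Slc3a2 also had one in DMSO.

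**Figure D2:**
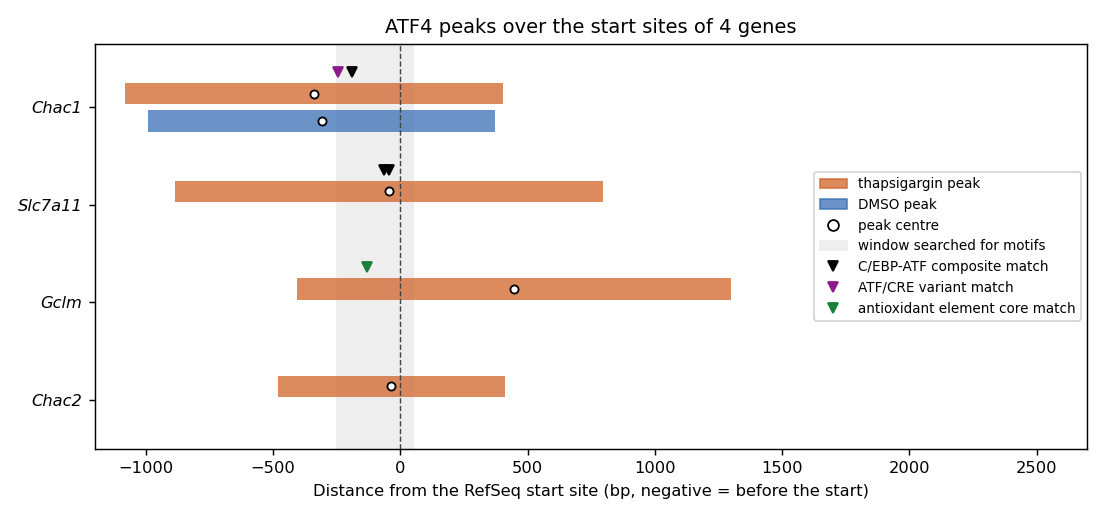
ATF4 peaks over the start sites of Chac1, Slc7a11, Gclm and Chac2; the x axis is the distance in bp from the RefSeq start site along the gene's strand, bars are the peaks of each list, circles their centres, triangles motif matches and the grey band the 300 bases searched. The Slc7a11 matches sit 17 bp and 2 bp from the peak centre, and the Gclm peak is centred 446.5 bp after the start.

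For the making of cysteine from homocysteine, Cth and Cbs differed. Cth, which releases cysteine from cystathionine, had 2 thapsigargin peaks inside the gene (chromosome 3, 157894248 to 157925081) and no DMSO peak within 1.48 Mb. One, at 157922843 to 157923665 (823 bp), was centred 1.83 kb from the right-hand end of the span, and the other, at 157897527 to 157898589 (1063 bp), 3.81 kb from the left-hand end. Neither covered a gene end, and Cth joined the genes with an end peak only when the window was widened to 3 kb. Cbs, which joins homocysteine to serine (chromosome 17, 31612623 to 31637233), had no peak in either list inside it or within 50 kb. Its nearest thapsigargin peak was 92.5 kb away, with 62.4% of protein-coding genes having a nearer one, and its nearest DMSO peak was 171 kb away.

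For the first step of glutathione synthesis, the modifier subunit had a peak at its start and the catalytic subunit did not. The Gclm peak in thapsigargin, at 122245149 to 122246858 on chromosome 3, was the widest of the 10, with 1710 bp and percentile 92.7. It began 408 bp before the start site at 122245557, ended 1301 bp after it and was centred 446.5 bp inside the gene. A gene end of the lncRNA gene Gm46822 also lay within 1 kb of this centre, so the peak cannot be given to Gclm alone. The nearest DMSO peak was 73.4 kb from Gclm. Gclc (chromosome 9, 77754535 to 77794489) had no peak in the gene, and the nearest in thapsigargin, at 77827900 to 77828932 (1033 bp), was 33.9 kb from its end. No protein-coding gene end was closer to that peak than that of Gclc. The nearest DMSO peak was 228 kb away.

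The genes of the later steps, Gss and Gsr, had no peak inside the gene or at its ends in either list. Gss, the synthetase that completes glutathione (chromosome 2, 155563181 to 155592810), had thapsigargin peaks 26.9 kb and 45.3 kb from its ends and no DMSO peak within 552 kb. The first, 501 bp wide and at percentile 4.57, was inside Myh7b, a myosin heavy chain gene. The second, 809 bp wide, was centred 121 bp from a gene end (either limit of the span) of Acss2, a gene of acetyl-CoA synthesis. Gsr, the reductase (chromosome 8, 33653238 to 33698162), had its nearest thapsigargin peak 11.0 kb away, at 33641737 to 33642788 (1052 bp) inside Ubxn8, and its nearest DMSO peak 1.06 Mb away.

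**Figure D3:**
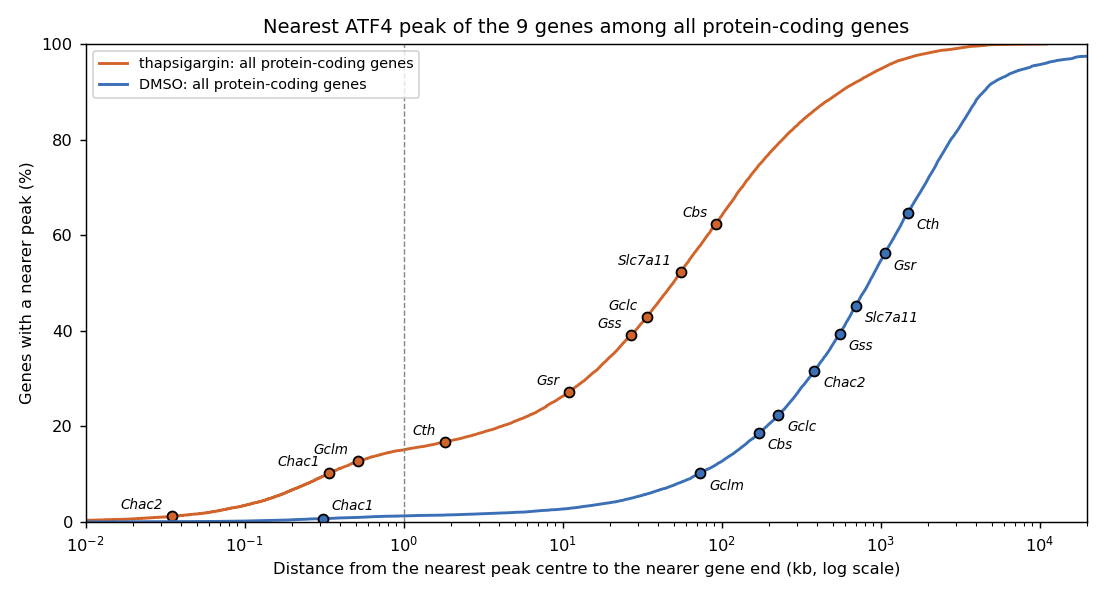
Share of protein-coding genes with a nearer peak (y axis, %) against the distance in kb, on a log scale, from the nearest peak centre to the nearer gene end; lines are all 21631 protein-coding genes in each list, points the 9 genes and the dashed line 1 kb. In thapsigargin Chac2, Chac1 and Gclm lie within 1 kb and Cth just beyond at 1.83 kb, whereas in DMSO only Chac1 does; Slc7a11 appears at 55.4 kb because its start site is inside its span.

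Ordered by the distance of the nearest thapsigargin peak to a gene end, the genes ran Chac2, Chac1, Gclm, Cth, Gsr, Gss, Gclc, Slc7a11 and Cbs, from 35 bp to 92.5 kb. The median was 11.0 kb, beside 49.7 kb over all protein-coding genes. In DMSO the median was 383 kb, beside 844 kb. The nearest peaks of Gss and Gsr lie in other genes, so this distance is no measure of binding that belongs to the gene named.

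**Figure D4:**
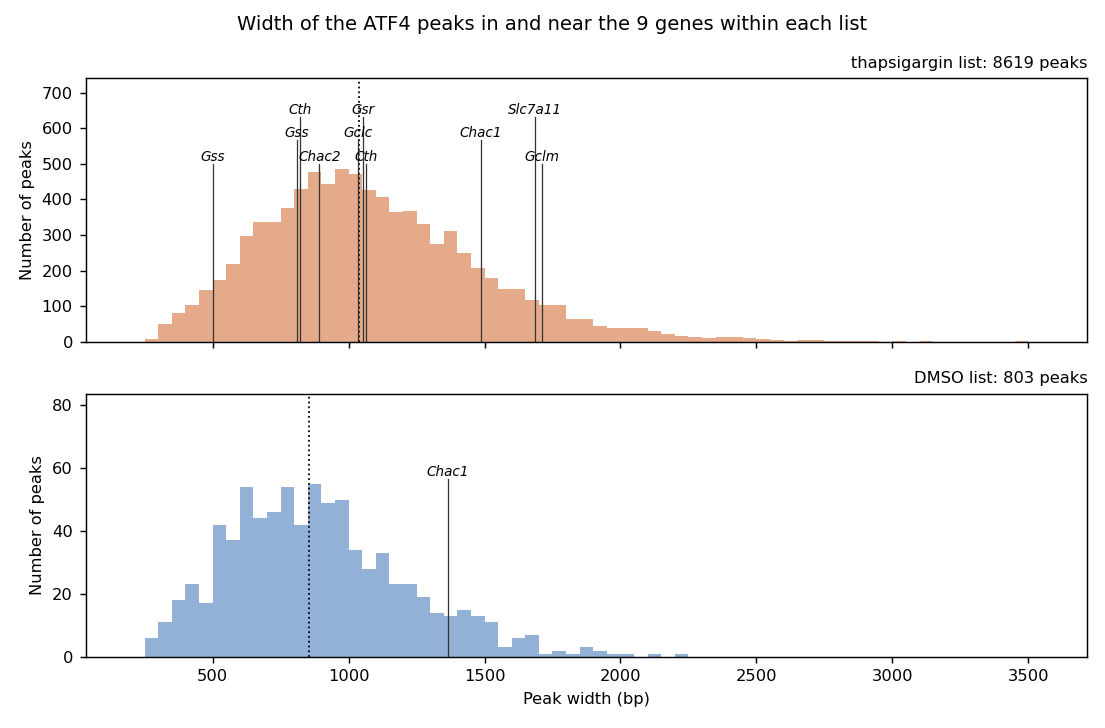
Number of peaks (y axis) by width in bp (x axis) in the thapsigargin list (top) and the DMSO list (bottom); vertical lines mark the peaks in or within 50 kb of the named genes and dotted lines the list medians of 1037 and 856 bp. The peaks over the starts of Gclm, Slc7a11 and Chac1 are the widest of the set at 1710, 1684 and 1487 bp.

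Of the 4 start-site peaks, those of Chac1, Slc7a11 and Gclm were wider than the list median and that of Chac2 was narrower. Width grows with read depth as well as with the extent of binding, and these cannot be told apart here.

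The 4 covered windows differed in sequence. In windows of 300 bases (250 before and 50 after the start), TGATGNAA on either strand occurred in Chac1 and Slc7a11 and in neither Gclm, Chac2, Gss nor Cbs. The centres of the Gclm peak and of both Chac1 peaks lay outside these windows, so the sequence there was not searched. TGATGNAA occurred in 3.45% of 21045 windows of protein-coding genes, in 4.63% of the 2223 windows wholly inside a thapsigargin peak and in 32.8% of the 131 wholly inside a DMSO peak. Chac1 is among these 131. Slc7a11 is among the 2005 windows inside a thapsigargin peak that no DMSO peak touched, of which 2.59% held the motif. The stricter TGATGCAA, of which every match is also one of TGATGNAA, occurred in the same pair of genes and in 0.851% of all windows, and TGATGCAAT in no gene of the set and 0.181% of all windows. The variant TGACGCAA was in the Chac1 window and in 0.641% of all windows. It was in 3.82% of those inside a thapsigargin peak and in 22.9% of those inside a DMSO peak.

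The core TGACNNNGC, to which the oxidative stress factor NRF2 is known to bind, was found once among the 6 windows, in Gclm at -134 to -126. This match was 576.5 bp from the centre of the Gclm peak, which lay outside the searched window. The core occurred in 13.0% of all windows. Of the 2005 windows inside a thapsigargin peak that no DMSO peak touched, to which that of Gclm belongs, 17.3% held it. The cAMP response element TGACGTCA (2.26% of all windows) and the AP-1 motif TGANTCA (7.04%) were in none of the 6. Base composition was spread widely: G and C made up 79.7% of the Gclm window, more than in 98.5% of all windows, and 44.7% of the Slc7a11 window, more than in 16.0%. Chac1 had 61.3% and Chac2 52.0%. A match of letters describes the sequence and does not show a bound site, and windows of one gene or of paired genes can overlap.

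Around the 9 genes, 9 lists of the wider pathway held 84 genes, of which 83 matched the gene table. The remaining name, Hagl, was misspelt for Haghl, so that this glyoxalase family gene was left out of the counts. In thapsigargin 16 of 83 (19.3%) had a peak at a gene end, beside the 15.1% of all genes given above, and in DMSO 1 of 83 did. By RefSeq start sites the counts were 17 of the 73 with an entry in thapsigargin and 2 of 73 in DMSO, beside 16.4% and 1.38% of all protein-coding genes with an entry. The 1 gene with a DMSO peak at its end was Got1, the aspartate transaminase that also acts on cysteine sulfinate, whose peaks of 987 bp in DMSO and 1290 bp in thapsigargin lay over the same site. The second by start sites was Slc3a2. Chac1, Slc3a2 and Got1 were thus the genes with a start-site peak in DMSO, among those of the 9 genes and the 9 lists that had an entry.

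Among the pathway lists, the uptake list had 1 of 5 genes with an end peak in thapsigargin (Slc3a2). The methionine cycle and sulfur transfer list had 3 of 12. Those were Mat2a, which makes S-adenosylmethionine (1345 bp), and the sulfurtransferases Mpst and Tst, neighbours that share 1 peak of 1123 bp. The list of cysteine use had 2 of 5, Got1 and the iron-sulfur cluster desulfurase Nfs1 (1181 bp). None of 10 genes of glutathione breakdown and the gamma-glutamyl cycle beyond Chac1 and Chac2 had one. The share of all protein-coding genes with one in thapsigargin was 15.1%.

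Among the remaining lists, none of 7 glutathione peroxidases and none of 7 NADPH-supplying enzymes had a peak at a gene end. Among all protein-coding genes 15.1% had one in thapsigargin, and these short lists were not tested against that share. By start sites Gpx4, which reduces lipid peroxides, had one centred 130.5 bp away, and Idh1, which makes NADPH, one 508.5 bp away, both in thapsigargin and both named after their values were seen. The glutathione transferases had 5 of 24, led by Gsto2 (2041 bp), Gstz1 (1449 bp), Gsto1 (1310 bp) and Gstcd (1217 bp). The Gsto2 peak lay at the other end of the span from its start sites, which had no thapsigargin peak centre nearer than 4257.5 bp. By start sites 4 of the 22 transferases with an entry had a thapsigargin peak, without Gsto2. The share of all protein-coding genes with an entry was 16.4%. The list of glutaredoxins and glyoxalases, in which Esd belongs to neither family, had 3 of 7, with Glrx5 (979 bp), Glo1 (851 bp) and Esd (465 bp). Hagh, of the same list, had a thapsigargin peak 222 bp from its start site, also named afterwards. Of the glutathione transport genes 2 of 6 had one, the mitochondrial carriers Slc25a39 (1883 bp) and Slc25a40 (802 bp). None of these genes but Got1 had a DMSO peak at a gene end.

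**Figure D5:**
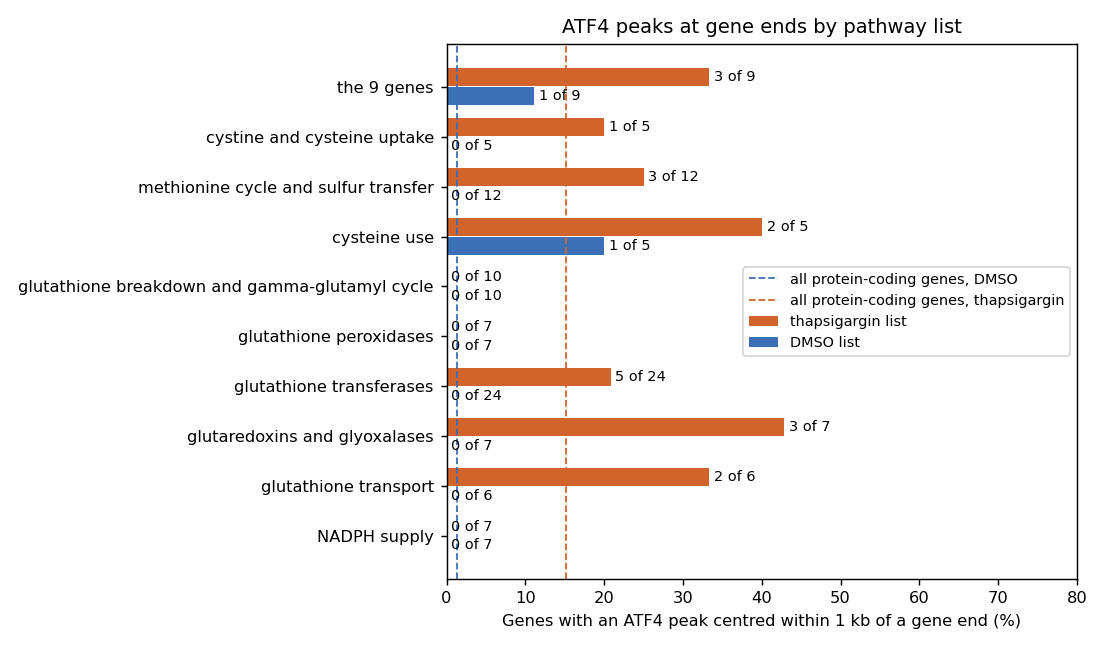
Share of genes (x axis, %) whose gene end lay within 1 kb of the centre of an ATF4 peak, for the 9 genes and each pathway list (y axis), with counts beside the bars; dashed lines are the shares of all protein-coding genes, 15.1% in thapsigargin and 1.29% in DMSO. Got1 and Chac1 give the only DMSO bars, and the lists of glutathione breakdown, peroxidases and NADPH supply have no bar.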

How the data were processed

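CUT&Tag for ATF4, CHOP, CEBPβ, CEBPγ and H3K27Ac was done in 20 samples, 10 groups of 2 replicates, per the labels. Only the ATF4 peak lists deposited by the authors, 1 per treatment, were used, and the other 8 groups were not analysed here. The lists hold chromosome, start and end. Per the submitters' processing notes, the build was mm10 and the tools named were MACS2 2.2.7.1, Bowtie2 and Trim Galore 0.6.10. Not given in the sources used here are their settings, a control library, the threshold and how replicates were combined.

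Gene spans, start sites and sequences came from RefSeq tables of GRCm38.p6. Coordinates count from 1. Distances run from the peak centre, and overlap means at least 1 bp. Results are counts beside the percentage over all protein-coding genes, with no test, because each condition has 1 list. The 95% Wilson intervals of these percentages were 14.6% to 15.6% in thapsigargin and 1.14% to 1.44% in DMSO at gene ends, and cover counting error only. Other genes were named where a gene end lay within 1 kb of a counted peak or the peak lay nearest to or in them, and, from the pathway lists, where both lists had an end peak or by peak width, up to 4 per list. The genes and lists were chosen with earlier results of these data known. Counting was tested on simulated data. The tools were scipy 1.17.1, pandas 2.3.3 and numpy 2.4.6 in Python 3.11.15, with figures drawn by matplotlib 3.10.9.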

Additional observations from a re-analysis of the deposited data

How the results depend on the processing

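No paired analysis was possible because the files hold 1 peak list per treatment, and for the same reason no replicate could be left out. The counts of genes with an end peak, 3 in thapsigargin and 1 in DMSO, ranged from 2 to 4 and stayed at 1 over windows of 500 bp, 3 kb and 5 kb, the peak edge, the start end by strand, the wider 50% of each list, merging within 500 bp and, added after the data were seen, RefSeq start sites. At 500 bp Gclm dropped out, in the wider 50% Chac2 did, and at 3 kb and 5 kb Cth came in. The 8 genes with a thapsigargin peak inside or within 50 kb became 5 with a reach of 10 kb, 5 in the wider 50% of the list (with Gsr in place of Chac2) and 9 with a reach of 100 kb, when Cbs came in, and the 1 gene in DMSO became 2 at 100 kb, with Gclm. No share over all protein-coding genes was counted for the 10 kb and 100 kb reaches, the wider 50% or the 3 kb window. The counts under those settings therefore have no background beside them. The share of genes with an end peak was 8.45% over all gene types, 12.5% at 500 bp and 21.1% at 5 kb in thapsigargin, and 0.702%, 0.962% and 2.03% in DMSO. The composite motif, found in 2 of 6 windows, was in 0 when written as TGATGCAAT. The overlap at Chac1 held under 3 other overlap rules. Read depth is unknown, so a missing DMSO peak may be a site below detection.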

Other observations

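Windows with the motif content of Slc7a11 or Chac1 were few. Of all protein-coding genes with a start-site window, 9 had at least 2 matches to TGATGNAA, and 3 of these windows lay wholly inside a thapsigargin peak: Aars, an alanyl-tRNA synthetase gene, Zfp672 and Slc7a11. Those of Aars and Zfp672 were also inside a DMSO peak, and that of Slc7a11 was not. The other 6 had no ATF4 peak touching the window. Both TGATGNAA and TGACGCAA were present in windows of 8 genes, of which 6 were inside a thapsigargin peak (Cdnf, Chac1, Herpud1, Hspa14, Plekhh3 and Samd8) and 5 of those, all but Plekhh3, also inside a DMSO peak. The other 2 had no ATF4 peak touching the window. Of all 21045 windows, 2223 were wholly inside a thapsigargin peak and 131 wholly inside a DMSO peak. These combinations and genes were picked after the sequences had been seen, and are given as counts.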
